A study of Drosophila melanogaster with 2 samples.

Results

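The genes described here encode 42 Drosophila proteins that maintain, read or change chromatin, out of 13945 protein-coding genes on the 6 chromosome arms that were searched for peaks. They are 17 Polycomb genes, 7 Trithorax genes, 8 genes of nucleosome remodelling enzymes and 10 genes of histone modifiers and heterochromatin proteins. Each gene is in a single class, and brm, mor, osa, Snr1 and kis, also known as Trithorax group genes, are counted with the remodellers. The genes were taken as a list of names and not by any measured value, with earlier results of these data known. All were found in the annotation, 41 by their symbol and calypso by a synonym. For each gene, the entry of highest signal with its summit within 500 bp of any transcription start site (TSS) was taken from each peak list, and summits inside the gene were listed as well.

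The peaks come from chromatin immunoprecipitation and sequencing (ChIP-seq) with an antibody to GFP. The flies were whole adults, males and females pooled, of unknown age, from a transgenic line in which the homeobox protein CG11617 carries GFP at its C terminus. They form 1 group of 2 biological replicates, numbered 2 and 3, so no genotype, treatment or time could be compared. Chromatin of all cell types was pooled, and neither the cells that hold a peak nor the share of cells can be told from these lists. The labels name a control experiment, which was not analysed here, and give no promoter for the transgene.

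Polycomb group proteins keep developmental genes silent through several complexes. PRC2 methylates histone H3, PRC1 binds that mark, compacts chromatin and ubiquitinates histone H2A, and PhoRC brings both to DNA. Trithorax group proteins act against this silencing by methylating other histone H3 residues, removing the Polycomb mark or working with remodelling ATPases, which slide or evict nucleosomes. Acetyltransferases, deacetylases and heterochromatin proteins set the wider state of the chromatin, and most of these factors are made in many tissues.

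The authors kept an optimal set of 5777 entries whose ranks were reproducible between replicates by the irreproducible discovery rate (IDR), called the IDR set here. All were among the 30000 candidates of the list made from pooled replicates, and their signal in it ran from 163 to 5197. Signal is the authors' own peak score, with no unit, and is not scaled between lists. Over 7815 genes with a promoter entry in both replicate lists, replicate 3 was a median 2.23-fold above replicate 2, a common shift of 1.16 on the log2 scale. Sequencing depth is unknown, as the lists carry no counts of reads.

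Most of these chromatin genes had a CG11617 peak at a promoter. An IDR summit fell in the promoter window, 500 bp to either side of a TSS, in 27 of the 42 (64.3%), against 30% of all protein-coding genes. A candidate of any strength in the pooled list, inside or outside the IDR set, was present for 41 of the 42, against 61.6% of all genes. The exception was calypso. Among the genes with such a candidate, 65.9% of the chromatin genes and 48.6% of all genes reached the IDR set. The median pooled signal was 264 over the 41 genes, with a range of 37.1 to 1799, and 158 over all genes with a promoter candidate. No test was made between gene lists, so these shares describe the peak lists.

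The share with an IDR promoter summit moved with the number of start sites. Of the 26 chromatin genes with 1 TSS, 13 (50%) had an IDR promoter summit, against 23.6% of all such genes. Of the 16 with 2 or more TSSs, 14 (87.5%) had one, against 47.5% of all such genes. The chromatin genes were also longer, with a median of 6.81 kb against 2.17 kb. Of all genes of 10 kb or longer, 37.8% had an IDR promoter summit, against 30% of all genes. Among genes with a pooled candidate the shares were close, 49.0% at that length and 48.6% over all. The share stayed above that of all genes in both TSS classes, and what part the number of start sites has in it was not tested.

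The share of genes with an IDR promoter summit was above 30% in each of the 4 classes. Remodellers had an IDR promoter summit in 6 of 8 genes (75.0%), Trithorax genes in 5 of 7 (71.4%), histone modifiers in 7 of 10 (70.0%) and Polycomb genes in 9 of 17 (52.9%). Their median pooled signals, over genes with a candidate inside or outside the IDR set, were 266, 264, 309 and 218 in the same order. Over the genes with an IDR promoter summit alone, the medians were 297, 294, 412 and 608, with Polycomb genes highest. The first 3 shares differ by less than 1 gene of any of these classes. Without replicate 3, from the strongest entries of replicate 2 alone, the Trithorax count was 3 of 7 (42.9%) against 8 of 17 (47.1%) for Polycomb genes. With each summit given only to its nearest TSS, the remodeller count was 3 of 8 (37.5%), again against 8 of 17. Polycomb genes were thus not the lowest class in these settings, where 28.1% and 22.9% of all genes had such a summit. They stayed below remodellers (62.5%) and histone modifiers (60%) in the first, and below Trithorax genes (57.1%) and histone modifiers (50%) in the second. Within the Polycomb genes, PRC1 had 4 of 7, PRC2 3 of 5, PhoRC 2 of 3 and the deubiquitinase PR-DUB 0 of 2. Polycomb genes ran from no pooled candidate at calypso to 1557 at ph-p.

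**Figure D1:**
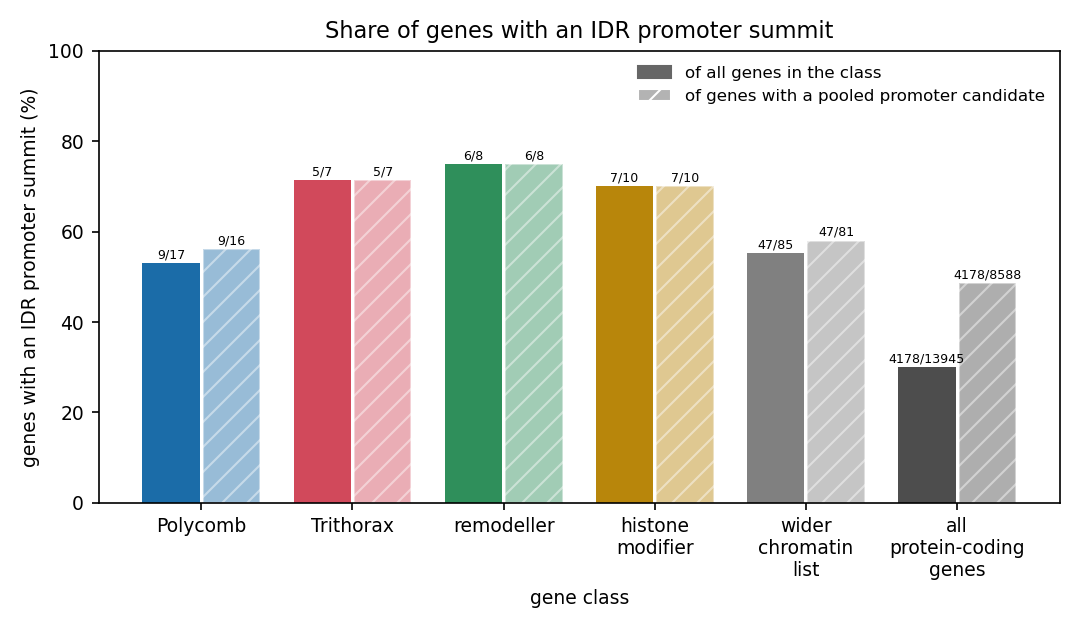
Share of genes, in percent, with an IDR promoter summit, for each class, the wider chromatin list and all protein-coding genes. Solid bars are out of all genes of the class and hatched bars out of those with a pooled promoter candidate, with the counts printed above; the 4 classes stand between 52.9% and 75.0%, above the 30% of all genes.

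Sequence under the strongest promoter summits is shown first, because these windows surround the summits of highest signal within 500 bp of a TSS of the gene. They are 7 of the 11 genes of highest pooled promoter signal; ph-p and Su(z)12, whose summits lie in a 5′ UTR, and Sin3A are among those not shown. Each has 50 bp to each side of the summit, taken from Release 6 of the genome (dm6), written 5′ to 3′ on the strand of the gene. Capitals mark matches, on either strand, to the motifs described after them, and a match on the other strand appears as its reverse complement, such as TTTATA for TATAAA. The E(z) window is cut to the 65 bp that lie in an intron. All 7 windows are upstream or intronic.
Gcn5, chr3L:12524188-12524288, minus strand: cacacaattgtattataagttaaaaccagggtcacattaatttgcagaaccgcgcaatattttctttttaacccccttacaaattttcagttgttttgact
brm, chr3L:15982958-15983058, minus strand: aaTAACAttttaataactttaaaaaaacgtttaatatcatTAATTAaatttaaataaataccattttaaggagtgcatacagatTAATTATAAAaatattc
E(z), chr3L:10637977-10638041, minus strand: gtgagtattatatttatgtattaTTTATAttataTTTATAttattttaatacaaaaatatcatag
Sfmbt, chr2L:13176893-13176993, minus strand: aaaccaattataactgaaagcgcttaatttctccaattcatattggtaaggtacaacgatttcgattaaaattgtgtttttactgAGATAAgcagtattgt
ph-d, chrX:2123341-2123441, minus strand: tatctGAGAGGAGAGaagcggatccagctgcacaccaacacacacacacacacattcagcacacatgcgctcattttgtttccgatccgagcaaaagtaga
Sirt1, chr2L:13165309-13165409, plus strand: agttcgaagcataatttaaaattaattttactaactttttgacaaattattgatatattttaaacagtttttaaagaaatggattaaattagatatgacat
nej, chrX:9686211-9686311, minus strand: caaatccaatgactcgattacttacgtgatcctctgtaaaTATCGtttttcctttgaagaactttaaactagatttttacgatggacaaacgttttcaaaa
Most of these windows were rich in A and T. E(z) had 13.9% G and C in the full window, brm 14.9% and Sirt1 17.8%, while ph-d, with its run of CA repeats, had 48.5%. Over the 27 genes the median was 35.6%, with a range of 13.9% to 55.5% and the highest value at Su(z)2, and over all 3841 IDR promoter summits it was 36.6%. The low values at E(z), brm and Sirt1 thus did not hold for the list as a whole.

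In these windows no motif searched was found at more than 9 of the 27 summits. The letters CGATA were found at 9 of the 27 summits (33.3%, against 21.8% of all IDR promoter summits) and TAACA at 9 (33.3% against 25.2%), each read on both strands in the same window around the summit. TATAAA, the TATA box, was at 6 (22.2% against 19.1%), GAGAG, the core bound by GAGA factor, at 6 (22.2% against 11.9%), and TAATTA, a homeodomain core, at 3 (11.1% against 9.50%). GAGAG was at HDAC3, Mi-2, Sin3A, Su(z)2, ash2 and ph-d, so in every class. GCCAT, the core of the Pho site, was at Caf1-55, phol and trr (11.1% against 14.1%), with phol coding for a Pho relative. GGTCACACT was at Mi-2 alone, AGATAA at Sfmbt alone and TGATAA at 1 summit, where 1.82%, 6.59% and 8.46% of all promoter summits held them. TATCGATA, which contains CGATA, and likewise TGACAG, the palindrome ACATGT and the E-box CACGTG were at none of the 27, against 3.49%, 3.51%, 2.13% and 1.33%. With 100 bp to each side, TAACA was at 14 of the 27 (51.9%) against 43.6% of all promoter summits. In that wider window CGATA was at 12 (44.4% against 37.05%) and GAGAG at 8 (29.6% against 23.4%), so the GAGAG shares lay closer together. A match describes the letters in the window and not a binding site, and TAATTA and TATAAA can overlap, as they do at brm.

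**Figure D2:**
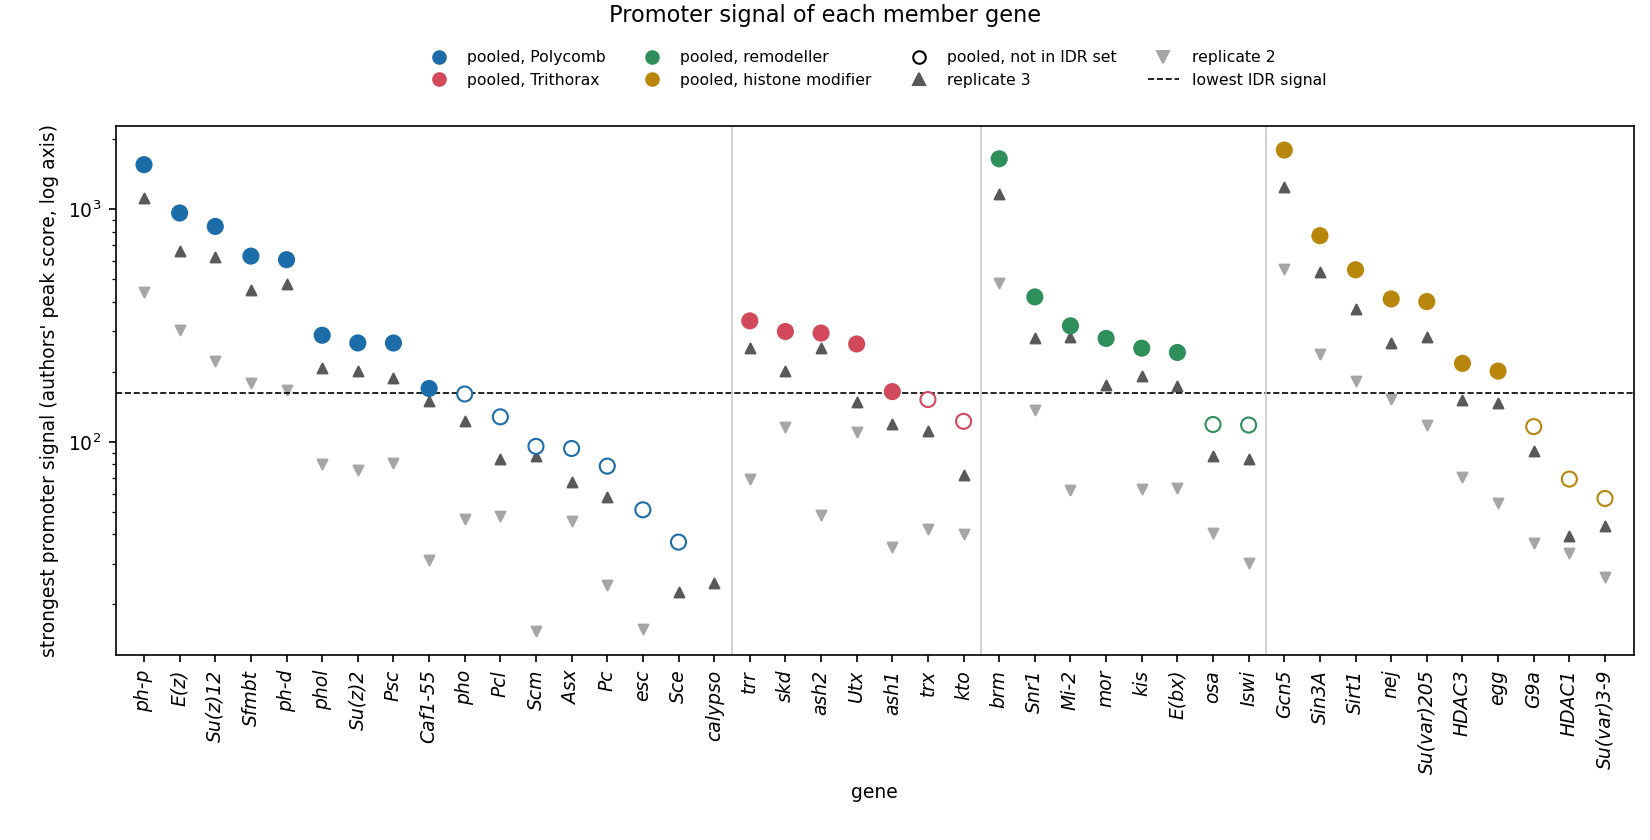
Strongest promoter signal (authors' peak score, log axis) of each of the 42 genes, by class and in falling order; circles are the pooled list, filled where the entry is in the IDR set, and triangles the 2 replicates, with a missing symbol where the list has no entry within 500 bp of a TSS. Gcn5, brm and ph-p stand highest in all 3 lists, and the dashed line marks the lowest IDR signal, 163.

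Among PRC1 genes the 2 polyhomeotic paralogues had the strongest peaks. At ph-p, whose SAM domain protein joins PRC1 units, promoter signal was 1557 in the pooled list, 439.9 in replicate 2 and 1118 in replicate 3, which ranked it 76th, 111th and 67th among all entries of those lists. The entry was chrX:2136647-2138318 (dm6), and its summit lay 460 bp downstream of the first TSS, in the 5′ UTR, and a second IDR summit of 741 was 282 bp upstream of the next TSS. At ph-d, its tandem neighbour on X, the values were 608, 167 and 476, with the summit 105 bp upstream of the first TSS. When overlapping IDR entries were merged and only the strongest summit kept, ph-d had no promoter summit. A stronger summit of that region thus lay more than 500 bp from its TSSs. The 2 genes are near-identical copies, and how reads that fit both were placed is not given in the sources used here, so the split of signal between them is uncertain. The RING-finger genes Psc (266, 81.0 and 188) and Su(z)2 (266, 75.6 and 202) lie on opposite strands of chromosome arm 2R. They had almost equal signal and no other gene's start within 500 bp of the summit.

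The other PRC1 genes stayed below the IDR set. Scm, which links PRC1 to PRC2, had a pooled signal of 95.7, with 15.4 in replicate 2 and 86.7 in replicate 3. Pc, the chromodomain protein that reads methylated H3, had 78.7, 24.3 and 58.0. Sce, the ubiquitin ligase subunit, had the lowest pooled value of any of the 41 genes, 37.1, with no entry in replicate 2 and 22.6 in replicate 3. The core PRC1 genes thus covered both ends of the list, from the 99.1st percentile of genes with a promoter candidate at ph-p to 23.0 at Pc and 4.55 at Sce.

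PRC2 genes also differed widely, from 51.1 to 965 in the pooled list. E(z), the histone H3 methyltransferase, had 965 in the pooled list, 303 in replicate 2 and 661 in replicate 3, and its scaffold partner Su(z)12 had 844, 223 and 621. Both summits lay just downstream of the first TSS, by 109 bp and 74 bp, and both regions also hold the start of a gene on the other strand, Cnep1r2 at E(z) and the prefoldin gene Pfdn6 at Su(z)12. Caf1-55, a histone-binding WD40 protein of several complexes, was just inside the IDR set (169.7, 30.9 and 149), in a start region shared with CG31344. Pcl, a PRC2 accessory factor, had 128, 47.8 and 84.8, and esc, the WD40 subunit that stimulates E(z), had 51.1, 15.7 and no entry in replicate 3. The nearest IDR summit to an esc start was 21483 bp away, the farthest of the 15 genes without an IDR promoter summit.

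Of the 3 genes of PhoRC, the DNA-binding Polycomb complex, 2 were in the IDR set. Sfmbt, which binds methylated histones and partners Pho, had 629, 179 and 451 with a summit 158 bp upstream, and CG5439 starts from the same region on the other strand. The zinc-finger gene phol had 288, 80.0 and 208, at a summit between its start and that of CG3552, which was nearer. Its paralogue pho, on the small chromosome 4, had 161, 46.7 and 123 and was the gene just below the lowest IDR signal of 163, followed by trx at 152; just above it were ash1 at 165 and Caf1-55 at 169.7. Both PR-DUB genes, whose enzyme removes ubiquitin from histone H2A, missed the IDR set. Asx had 93.7, 45.8 and 67.1, and calypso had an entry in replicate 3 alone, of 24.7. An IDR summit of 340, at the promoters of Lipt1 and CG42837, was 612 bp upstream of the calypso start.

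Genes of the Trithorax class, which leaves out brm and the other remodellers, had moderate promoter signal, at most 331. The H3 methyltransferase gene trr had 331 in the pooled list, 69.4 in replicate 2 and 252 in replicate 3, at a start region shared with the mitochondrial ribosomal protein gene mRpL16. ash2, a core subunit of COMPASS methyltransferases, had 294, 48.7 and 254, with a second IDR entry of 171 at its first TSS. Utx, the demethylase that removes the Polycomb mark, had 264, 110.1 and 148 at the third of its TSSs, against 126 in the pooled list at the first. ash1, another methyltransferase, had 165, 35.3 and 119, and the summit was nearer to Taf6, a general transcription factor gene on the other strand. The founding gene trx had 152, 42.0 and 111, under the lowest IDR signal, and its nearest IDR summit upstream was the 563 peak of red, 1950 bp away. Of the 2 subunits of the Mediator kinase module, skd had 298, 115 and 202, at a summit nearer to Pdss2 on the other strand, and kto 123, 40.1 and 71.9.

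Among remodellers the highest promoter signal was at brm. This gene, which encodes the ATPase of the Brahma complex, had 1650.2 in the pooled list, 481 in replicate 2 and 1167 in replicate 3, ranks 68, 78 and 60 in those lists, at a summit between brm and Arl1, 139 bp and 127 bp from their starts. Snr1, a core subunit, had 420.2, 137 and 279.8 next to mRpL44, and mor, the core scaffold, had 279 and 175 with no summit of replicate 2 within 500 bp of its TSS. The mor summit lay 459 bp upstream, in the 5′ UTR of Hel89B, and the replicate 2 entry that overlapped it had a signal of 105. The promoter of osa, the subunit that defines the BAP form, had 119, 40.5 and 86.9.

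Of the other 4 remodellers, 3 were in the IDR set. Mi-2, the ATPase of NuRD, had 316, 62.0 and 282, kis, a CHD-family ATPase, had 253, 62.7 and 193, and E(bx), the largest NURF subunit, had 242, 63.5 and 174. Iswi, the ATPase of NURF and related complexes, had 118, 30.2 and 84.4, so E(bx) and its partner ATPase fell on different sides of the IDR set. The Mi-2 summit was nearer to the splicing factor gene Prp3, 15 bp from its start, than to Mi-2, 70 bp.

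Histone modifiers held the highest promoter signal. Gcn5, the acetyltransferase of SAGA and related complexes, had 1799 in the pooled list, 554 in replicate 2 and 1243 in replicate 3, and ranked 51st, 54th and 47th. The summit was 224 bp upstream of Gcn5, in an intron of ver, a telomere protein gene on the other strand. It lay 189 bp upstream of the nearest TSS of ver. The CBP acetyltransferase gene nej had 412, 153 and 266 at an intronic summit 397 bp downstream of its second TSS. Sin3A, the deacetylase scaffold, had 770.3, 239 and 539.8 at its second TSS and 171 at its first, and the deacetylase genes Sirt1 and HDAC3 had 549.8, 183 and 372 and 218, 70.8 and 151. The start region of Sirt1 is shared with DnaJ-H and that of HDAC3 with Hcs and CG45100. HDAC1, the main Sin3A and NuRD deacetylase, had 69.2, 33.3 and 39.4, the lowest among deacetylation genes, with an IDR summit of 177 at Src64B 671 bp upstream.

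Genes of heterochromatin proteins and of the H3 lysine methyltransferases grouped with them were mixed. Su(var)205's product is HP1a, and its promoter had 401, 118 and 282, at a summit 22 bp from the start of its neighbour Ssb-c31a and 203 bp from its own. Of the H3 lysine methyltransferase genes in this group, egg had 202, 54.4 and 146, G9a 116, 36.6 and 91.0, and Su(var)3-9 57.1, 26.3 and 43.4. Su(var)3-9 shares its start region with eIF2gamma and Set, and G9a with CG3038, so the values of these neighbours cannot be told apart.

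Summits of the chromatin genes sat where promoter summits of other genes did. Of the 27 IDR summits, 20 (74.1%) were upstream of the nearest TSS of the gene, against 79.5% of all 4178 genes with an IDR promoter summit, and the median offset was −105 bp against −115 bp. Of the other 7, the summits of ph-p, Utx and nej lay farthest inside the gene, between 397 and 460 bp downstream. In 16 of the 27 (59.3%) another gene's TSS was also within 500 bp, against 57.9% of all genes with such a summit. In 8 of the 27, at Gcn5, Mi-2, ash1, brm, mor, phol, skd and the HP1a gene, another gene's TSS was nearer to the summit. When each summit was given only to its nearest start, 20 remained (47.6%, against 22.9% of all genes). Among them skd was kept by a weaker IDR summit of 213 at its second TSS. The peaks of highest signal, at Gcn5 and brm, were thus shared with ver and Arl1, and the gene that they act on, if any, cannot be told from a peak list.

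**Figure D3:**
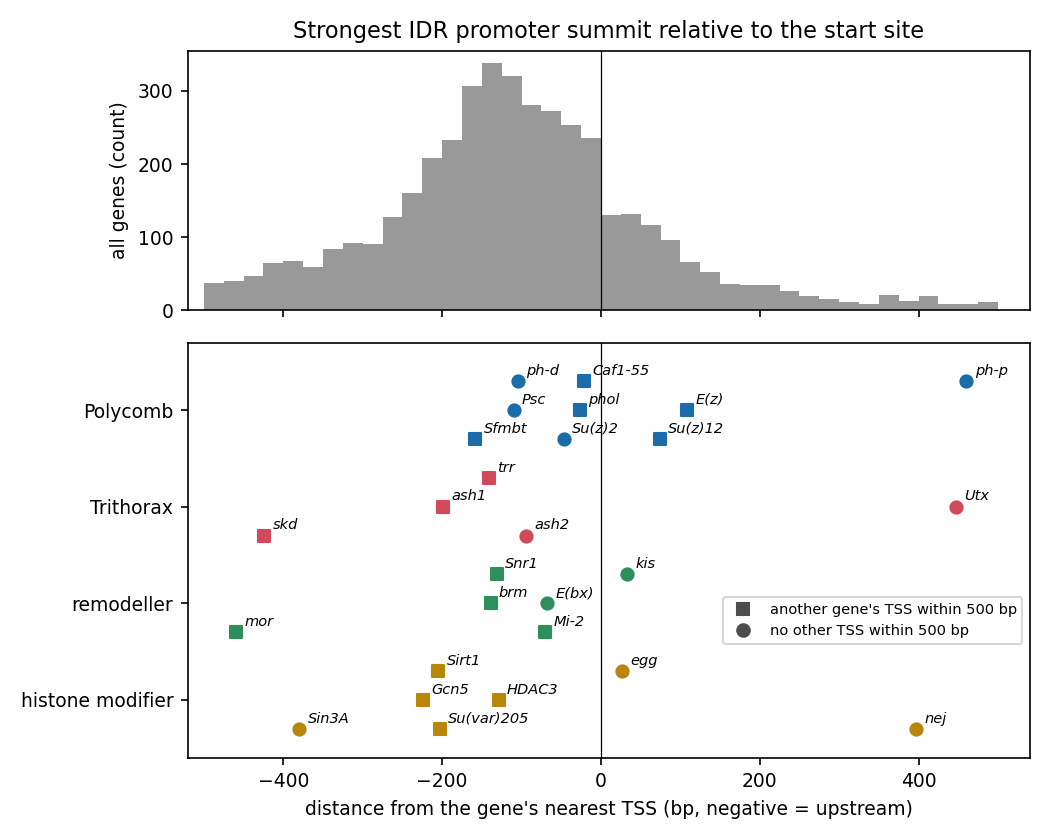
Distance, in bp, of the strongest IDR promoter summit from the nearest TSS of the gene, negative upstream; the upper panel counts all 4178 genes and the lower shows the 27 chromatin genes, with squares where another gene's TSS is also within 500 bp. Most points lie upstream, near the median of −105 bp, with ph-p, Utx and nej far downstream.

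In osa, trx, Sin3A, kis and Mi-2 a peak inside the gene was stronger than the promoter peak. An IDR summit inside the gene, outside the promoter window of every protein-coding gene, was present in 9 of the 42. Over all genes the share was 6.35%. The 9 genes held 22 such summits, some in the same entry, and starts of non-coding RNAs were not considered. All 9 were among the 13 chromatin genes of 10 kb or longer, a share to be read against 28.6% of all genes of that length, and 0 of the 29 shorter ones had one. Gene length therefore moves with this count.

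At osa, a gene of 30.5 kb with no IDR summit at its promoter, 5 intronic summits were found. The strongest, 17.8 kb from the TSS, had a pooled signal of 1860.0, with 617 in replicate 2 and 1239 in replicate 3, and the next, at 13.9 kb, had 1273, 389 and 884. The other summits had 536 and 307, in overlapping entries at 14.9 and 14.7 kb, and 237 at 942 bp. The first exceeded every promoter signal of the 42 genes, while the promoter of osa itself had 119. At trx, likewise without an IDR promoter summit, an intronic summit 3.05 kb from the TSS had 630.2, 173 and 458, and another at 8.75 kb had 164. Counting these, 29 of the 42 genes had an IDR summit at a promoter or inside the gene, and 13 had none. The same combined count was not made over all genes. Of those, 30% had a promoter summit and 6.35% had one inside the gene outside promoters.

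The intronic windows of osa and trx are shown because they held more signal than the promoters of these genes. They take 50 bp to each side of the summit from Release 6 (dm6), 5′ to 3′ on the strand of the gene, with capitals for matches to the same motifs, and they were chosen after their values were seen.
osa intron, chr3R:17700540-17700640, minus strand: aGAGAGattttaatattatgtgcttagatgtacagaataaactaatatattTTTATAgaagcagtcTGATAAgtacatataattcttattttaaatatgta
osa intron, chr3R:17704352-17704452, minus strand: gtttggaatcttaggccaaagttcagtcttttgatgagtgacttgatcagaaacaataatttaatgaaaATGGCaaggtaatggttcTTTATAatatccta
trx intron, chr3R:14283802-14283902, minus strand: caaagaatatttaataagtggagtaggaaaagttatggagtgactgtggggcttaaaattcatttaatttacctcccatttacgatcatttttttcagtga
The first osa window held a match to GAGAG, one to TATAAA and one to TGATAA, the second held GCCAT and also TATAAA, and the trx window none of the motifs searched.

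In other genes the inner summits were weaker or close to a start. Sin3A had an intronic summit of 969 (350.3 in replicate 2 and 603 in replicate 3) 1.33 kb from its first TSS, above its promoter value. It had 3 others from 192 to 513. The summit of 513 had the same entry as that of 969, and the summit of 192 the same entry as the promoter summit. In ph-p an intronic summit at 2.99 kb had 532, below its promoter. The 3 in kis ran from 258 to 354, all above its promoter value of 253, and 2 of them lay near its second TSS, 1207 bp and 1574 bp away. In Mi-2, 4 summits had 180.5 to 373. All 4 also lie inside Su(Tpl), a gene that overlaps Mi-2, the strongest in a 5′ UTR of Su(Tpl). The genes brm (210.1, also inside CG17029), nej (185) and skd (259) had 1 each.

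The replicates gave the chromatin genes of highest signal similar ratios. Relative to the common shift, the log2 ratio of replicate 3 to replicate 2 departed by at most 0.35 at the 9 of highest pooled signal, Gcn5, brm, ph-p, E(z), Su(z)12, Sin3A, Sfmbt, ph-d and Sirt1. Over the 26 IDR genes with both values the ratio had an SD of 0.45, against 0.40 over 4159 IDR genes. Of these 26, 3 (11.5%) departed from the shift by more than 2-fold, against 2.38% of all IDR genes. They were ash2 (1.22 on the log2 scale), Caf1-55 (1.11) and Mi-2 (1.03), each relatively higher in replicate 3, and Scm, outside the IDR set, departed most (1.34). The median percentile among genes with a promoter entry was 71.0 in the pooled list, 59.9 in replicate 2 and 69.2 in replicate 3. With 2 replicates this spread gives no test, and for ash2, Caf1-55 and Mi-2 the pooled signal was close to that of replicate 3.

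**Figure D4:**
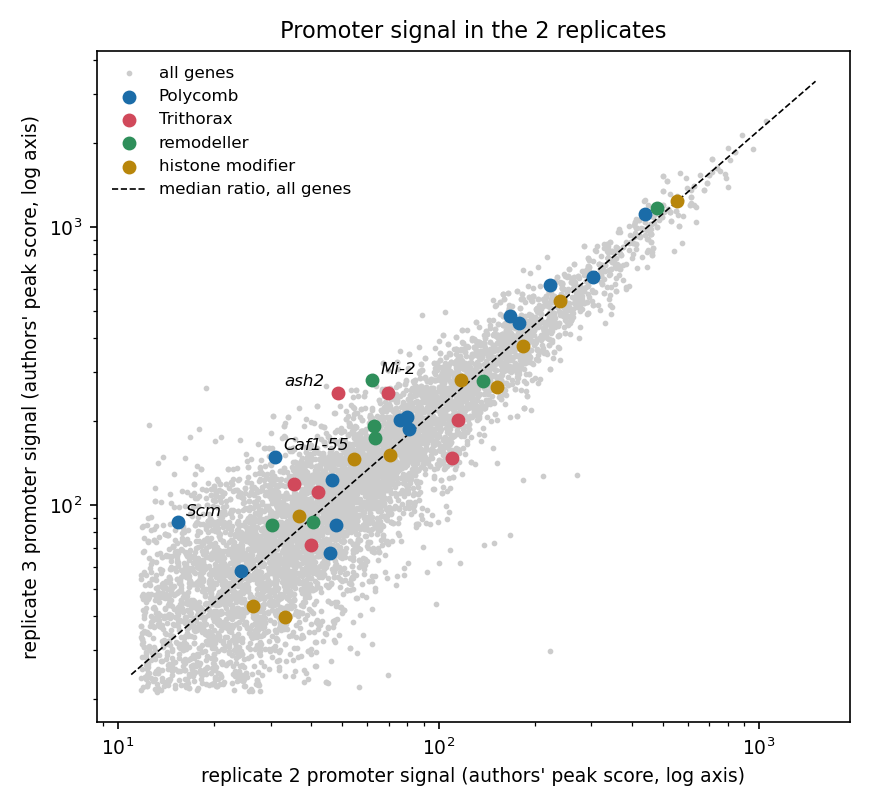
Strongest promoter signal of each gene in replicate 2 and in replicate 3 (authors' peak score, log axes), grey for all 7815 genes with both and coloured for 38 chromatin genes; the dashed line is the median ratio of 2.23. The strongest genes lie along the line, and ash2, Caf1-55, Mi-2 and Scm lie more than 2-fold above it.

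Other chromatin genes, from a list of 85 that leaves out the 42, showed a smaller share. An IDR promoter summit was present in 47 (55.3%), against the 30% of all genes, and the median pooled signal of the 81 with a candidate was 183. Acetylation and deacetylation genes had 14 of 20, led by Ada2b (1107, with 362 in replicate 2 and 730.2 in replicate 3), a partner of Gcn5 in SAGA, then Sirt6 (699), Hat1 (650.4) and Ada3 (537). Gcn5, Ada2b and Ada3 belong to 1 acetyltransferase module, and each was in the IDR set, while Ada2a, of the related ATAC complex, had 110.0. Remodelling genes had 11 of 19, with Chd1 (749), Ino80 (639), MTA1-like (578) and MBD-like (520), the last 2 encoding NuRD subunits that act with Mi-2.

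Other Polycomb-related genes had 9 of 14, led by Trl, which encodes GAGA factor (597), jing (572), psq (540) and mxc (458). COMPASS and methylation genes had 7 of 15, led by Hmt4-20 (800.2), Lpt (514), wde (428) and Rbbp5 (350.5), and Set1 was without a pooled candidate. Lpt encodes a subunit that works with trr and Utx, and wde a partner of egg, and each had a higher value than those genes. Heterochromatin genes had 4 of 11 (36.4%, near the 30% of all genes), with HP1b (386), ADD1 (297), Su(var)2-10 (274) and Su(var)3-7 (238), and HP1e and rhi had no pooled candidate. Demethylase genes had 2 of 6 (33.3%, also near that share), Kdm4B (211) and CoRest (170.2), with Kdm4A the only one of the 6 at no candidate.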

How the data were processed

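Peak lists in the narrowPeak layout were deposited by the authors on dm6 and dm3: candidates for each replicate, candidates for the pooled replicates, and an IDR set, per the notes deposited with them. The deposited signal column is the authors' peak score, with no unit and no scaling between lists, and it was used to rank entries within a list. Which aligner and caller made them is not given in the sources used here. Without read counts, no interval or floor is given. The dm3 lists were not used.

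Summits on dm6 were assigned with Python 3.11.15 and pandas 2.3.3 to every protein-coding gene of Ensembl release 115 (BDGP 6.54) with a TSS within 500 bp, 19607 TSSs in all, and to the genes that contain them. The assignment was checked on simulated data. Percentiles are among genes with a promoter entry in the same list. Motifs were searched on both strands of Release 6 (RefSeq), and 1 of the 8 promoter windows chosen for display is not reported here. Calypso was matched through a RefSeq synonym. Of 93 planned genes of the wider list, 85 matched by exact symbol and 8 were left out. Synonyms were not searched for this list, so a gene annotated under another spelling, such as Chrac-14, is missing from its shares.

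Members, lists and motifs were chosen with earlier results of these data known. All members are named, with neighbours within 500 bp of the summit; of the wider list, the 4 of highest IDR signal per group and, where fewer than 6, the genes without an entry. Further genes named from it were chosen after values were seen. With 1 group of 2 replicates, no test was made. Alternatives changed the promoter window, peak set, TSS set, assignment, merging, motif window and replicates used.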

Additional observations from a re-analysis of the deposited data

How the results depend on the processing

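The number of chromatin genes with an IDR promoter summit (27) was 20 to 30 under the alternatives. A window of 250 bp gave 24 (mor, nej and ph-p lost) and 1000 bp gave 30 (HDAC1, calypso and osa gained). These are 57.1% and 71.4%, against 25.4% and 32.8% of all genes. Merging overlapping entries, with the strongest summit kept, gave 26 (61.9%, ph-d lost), against 29.7% of all genes. Giving each summit to its nearest TSS gave 20 (47.6%, against 22.9% of all genes). Remodellers then fell from 6 to 3, without brm, mor and Mi-2. The 2888 strongest IDR entries gave 21, with 2502 of all genes and 29 of the wider list in place of 4178 and 47. Without each replicate in turn, as many of the other replicate's strongest entries were taken. The count was then 22 to 28 (52.4% to 66.7%), against 28.1% to 30.3% of all genes. The Trithorax count was 3 to 5 and the median percentile 59.9 to 69.2. Without replicate 3, Caf1-55, ash1, ash2, egg and mor were lost. The median IDR promoter signal of the chromatin genes, 316, was 291 at 250 bp, 307 at 1000 bp, 412 for the 2888 strongest and 298 with the 5′-most TSS. Pooled candidates in place of IDR entries gave 17 genes with a summit inside the gene outside promoters, against 9. That setting was not counted over all genes. Motif counts moved with the window. The causes were not tested. The other 71 values stayed within 1.5 times or within the spread between replicates. No paired analysis was possible because the series has 1 group. Whole-organism chromatin, an unanalysed control and an unknown depth limit every value.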
